A study of Mus musculus with 19 samples.

Results

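The yolk sac mesoderm at E9.25 and the fetal liver at E12.5 were compared by RNA-seq, as the first and a later site of blood formation in the mouse embryo. The members were the 4 libraries labelled as either tissue, 2 of visceral yolk sac (VYS) mesoderm and 2 of liver, out of the 11 RNA-seq libraries and 19 samples of the series. The series was made to ask whether cystic embryoid bodies (cystic EBs), fluid-filled structures grown from ES cells, model yolk sac endoderm (ysE), and both tissues were sequenced beside them. All 4 samples had the FVB background, each held the pooled tissue of a whole litter per the study's methods, and the labels give no treatment or engineered allele. The mesoderm layer was peeled by hand from the endoderm after Dispase II and, per the study's methods, kept the blood vessels and the basement membrane. Its libraries were made with the dUTP protocol and those of the liver with ScriptSeq v1, both after removal of ribosomal RNA. Stage and library protocol therefore went with the tissue, and the 3 cannot be told apart in any difference given here. The labels letter the libraries of a tissue A and B without saying more of how they differ, so p-values measure only the spread between sequenced samples. That spread was taken over all 11 RNA-seq libraries, not over the 4 of these tissues alone. The cystic EBs entered the fit as a group that mixed 2 ES cell clones, 2 protocols and 2 days of differentiation. Both clones came from strain crosses without FVB, per the study's methods. The clone sequenced with ScriptSeq was male (XY) and that sequenced with dUTP was female (XX). For genes that differ between the EB libraries, a missing call therefore need not reflect spread within mesoderm or liver.

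The yolk sac makes the first red cells of the embryo. These primitive cells arise in blood islands of the mesoderm beside the first endothelium, enter the circulation with their nuclei, and fill with embryonic globins. The liver is later seeded by progenitors that arise elsewhere, and makes definitive red cells on macrophage islands among hepatoblasts, so a liver at this stage holds definitive precursors and also primitive cells from the blood.

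The mesoderm libraries held 107121229 (A) and 119296265 (B) counts over RefSeq transcripts, and the liver libraries 63798810 (A) and 59203340 (B). Levels are given as RPKM, reads scaled to transcript length and library size, in the order library A, library B. RPKM per count, relative to liver A, was 0.791 and 0.678 in mesoderm A and B and 1.19 in liver B. Scaling by the total counts above would set the mesoderm lower against the liver. Statements on overlap between libraries therefore hold for the RPKM only. Fold changes are log2 differences of mesoderm minus liver from edgeR's quasi-likelihood test on the counts, with their standard error (SE), and a transcript was called at an adjusted p below 0.05 (Benjamini-Hochberg over all 24858 transcripts tested). The test called 5219 transcripts (21.0%) higher in mesoderm and 4435 (17.8%) higher in liver. With 1 transcript per gene, 21.4% of 18720 genes were called higher in mesoderm and 17.1% higher in liver, and counts in the 22 gene lists below are to be read against these shares. With a term for protocol, estimated from the cystic EBs, the shares were 17.7% and 13.9%. That term also carries the difference between 2 ES cell clones, because each EB clone was sequenced with its own protocol. For genes near 0 RPKM in the EBs the term is poorly determined, so a call lost with it there says little about protocol. In bulk tissue, fewer cells of a type and less RNA per cell cannot be told apart.

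The 3 marker genes gave a mixed check of the labels. Postn, a matrix protein of mesenchyme on chromosome 3 (54359267 to 54391041), stood at 386 and 228 RPKM in mesoderm and 11.6 and 7.51 RPKM in liver, and was called higher in mesoderm (log2 4.79 ± 0.94, edgeR adjusted p = 0.00421). Kdr, the main VEGF receptor of endothelium on chromosome 5 (75932827 to 75979072), stood at 47.1 and 47 RPKM in mesoderm and 11.8 and 10.6 RPKM in liver. Both mesoderm libraries lay above both liver libraries, as for 47.4% of all genes, but Kdr was not called (log2 1.87 ± 0.83, edgeR adjusted p = 0.102). It was called with the protocol term (log2 3.42) and when edgeR was fitted to the 4 mesoderm and liver libraries alone (adjusted p = 0.000317). That fit to 4 libraries called more transcripts than the main fit, 7091 higher in mesoderm and 6277 higher in liver. Hba-a1, an adult alpha globin, did not mark either tissue, with 1916 and 1857 RPKM in mesoderm and 867 and 1739 RPKM in liver. The liver label fitted its markers, since albumin (Alb) stood at 358 and 767 RPKM in liver and 0.077 and 0.040 RPKM in mesoderm. The mesoderm libraries also carried ysE transcripts. The 11 genes of a ysE list summed to 236 and 356 RPKM in mesoderm A and B, or 12.3% and 18.6% of their mean sum in the E9.25 ysE libraries, against 18.0 and 18.3 RPKM in liver.

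**Figure D1:**
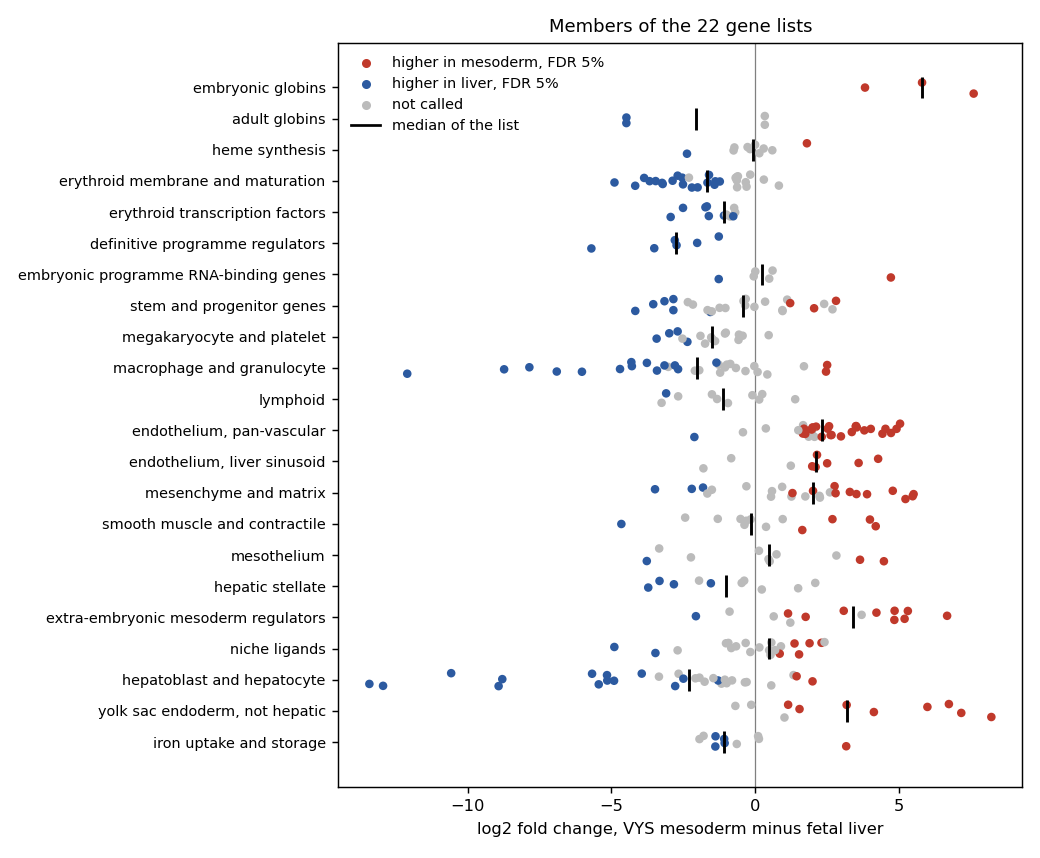
Each point is 1 gene of 22 lists, placed by its log2 fold change (VYS mesoderm minus fetal liver, 2 libraries each); colours mark the edgeR call at an FDR of 5% and black bars the list medians. Embryonic globins, endothelium, extra-embryonic mesoderm regulators and ysE genes lie to the right, and definitive regulators, erythroid membrane, macrophage and hepatocyte genes to the left.

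Embryonic globins had the highest median difference of the 22 lists. All 3 were called higher in mesoderm, with a median log2 fold change of 5.81, against 0.13 over all genes tested. Hbb-bh1, an embryonic beta-like globin on chromosome 7 (103841638 to 103843162), stood at 21222 and 16453 RPKM in mesoderm and 115 and 51.8 RPKM in liver, which was 195-fold higher (log2 7.61 ± 1.13, edgeR adjusted p = 0.00131). Hbb-y, the other embryonic beta-like globin (chromosome 7, 103851754 to 103853207), stood at 18741 and 13955 RPKM in mesoderm and still at 995 and 1004 RPKM in liver, so that its difference was 14.2-fold (log2 3.83 ± 0.77, edgeR adjusted p = 0.00466). Hba-x, the embryonic alpha-like globin (chromosome 11, 32276600 to 32278116), stood at 3884 and 3741 RPKM in mesoderm and 59.4 and 58.6 RPKM in liver, or 56.2-fold higher (log2 5.81 ± 0.87, edgeR adjusted p = 0.00134). Both mesoderm libraries lay above both liver libraries for each of the 3, as they did for 47.4% of all genes tested, and both liver libraries lay above both mesoderm libraries for 30.6%. All 3 calls held without any 1 of the 4 libraries and with the protocol term, which lowered the log2 fold changes of Hbb-bh1, Hbb-y and Hba-x to 5.84, 2.48 and 4.54. In the EBs the libraries of the 2 protocols differed in these genes by 1.77, 1.33 and 1.27 on the log2 scale. The order of the 2 embryonic beta-like globins in RPKM was turned between the tissues. Hbb-bh1 exceeded Hbb-y by 1.13-fold and 1.18-fold in mesoderm A and B, whereas Hbb-y exceeded Hbb-bh1 by 8.67-fold and 19.4-fold in liver A and B. This turn in the order was not tested. Hbb-bh2, a further beta-like globin named after its values were seen, stood at 19.9 and 19.5 RPKM in mesoderm and 0.217 and 0.047 RPKM in liver.

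The promoters of 2 embryonic and 3 adult globin genes are shown because the embryonic and adult genes of each globin cluster were distributed differently between the sites. Each runs from 250 bases before to 50 bases after the gene start (RefSeq, GRCm38.p6), and the promoter of Hbb-bh1 was not analysed here. Capitals mark 4 motifs, searched on both strands: CACCC (the core of KLF sites), CCAAT (the CCAAT box), GATAA (the core of GATA sites) and ATAAA (TATA-like). The last of these can overlap the GATA core in a few letters.
Hba-x, chr11:32276350-32276649, plus strand: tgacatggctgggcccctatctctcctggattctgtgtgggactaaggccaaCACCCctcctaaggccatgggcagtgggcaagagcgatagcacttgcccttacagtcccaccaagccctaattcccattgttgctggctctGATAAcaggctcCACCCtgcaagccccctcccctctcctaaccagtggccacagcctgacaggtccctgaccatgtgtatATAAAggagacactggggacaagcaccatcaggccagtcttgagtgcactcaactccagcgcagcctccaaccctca
Hbb-y, chr7:103853158-103853457, minus strand: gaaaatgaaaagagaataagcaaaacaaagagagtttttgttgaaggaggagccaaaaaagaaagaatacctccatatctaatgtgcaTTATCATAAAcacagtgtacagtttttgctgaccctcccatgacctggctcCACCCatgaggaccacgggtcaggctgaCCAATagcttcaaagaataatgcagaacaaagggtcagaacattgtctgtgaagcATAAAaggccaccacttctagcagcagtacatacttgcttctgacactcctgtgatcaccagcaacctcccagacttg
Hba-a1, chr11:32283422-32283721, plus strand: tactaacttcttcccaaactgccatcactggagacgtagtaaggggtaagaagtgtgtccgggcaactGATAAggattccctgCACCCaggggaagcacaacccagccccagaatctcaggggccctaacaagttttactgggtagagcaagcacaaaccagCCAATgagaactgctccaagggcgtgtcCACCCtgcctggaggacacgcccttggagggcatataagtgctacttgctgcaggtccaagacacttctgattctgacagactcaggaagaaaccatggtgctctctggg
Hbb-bt, chr7:103813874-103814173, minus strand: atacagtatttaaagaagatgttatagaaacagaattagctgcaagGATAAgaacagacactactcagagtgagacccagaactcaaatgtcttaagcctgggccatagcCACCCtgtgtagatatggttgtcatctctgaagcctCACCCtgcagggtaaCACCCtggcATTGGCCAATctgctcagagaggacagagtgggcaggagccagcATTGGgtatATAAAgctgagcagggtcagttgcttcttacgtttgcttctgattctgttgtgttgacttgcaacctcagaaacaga
Hbb-bs, chr7:103827879-103828178, minus strand: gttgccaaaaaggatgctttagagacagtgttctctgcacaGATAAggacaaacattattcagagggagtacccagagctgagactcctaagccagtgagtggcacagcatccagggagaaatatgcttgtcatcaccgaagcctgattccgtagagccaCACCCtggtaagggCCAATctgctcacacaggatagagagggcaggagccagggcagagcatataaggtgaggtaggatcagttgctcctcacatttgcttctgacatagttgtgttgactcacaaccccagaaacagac
Hbb-bt and Hbb-bs are the RefSeq names of the adult beta globin genes that the files list as Hbb-b1 and Beta-s. CACCC occurred in all 5 sequences and in 57.5% of 32851 promoters of this length. GATAA also occurred in all 5 and in 25.4% of promoters. CCAAT was found in Hbb-y and the 3 adult genes but not in Hba-x, against 37.4% of promoters. ATAAA was found 27 bases before the start in Hba-x and Hbb-bt and 28 and 157 bases before it in Hbb-y, and in 40.0% of promoters. Hba-a1 and Hbb-bs hold the letters TATAAG, which this motif does not match, so its absence there does not mean that they lack a TATA-like stretch. No motif was held by both embryonic genes and by none of the adult genes.

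Adult alpha globin did not follow the embryonic genes. Hba-a1 (chromosome 11, 32283672 to 32284486) was not called different (1916 and 1857 RPKM in mesoderm, 867 and 1739 RPKM in liver, log2 0.34 ± 1.19, edgeR adjusted p = 0.842). Both mesoderm libraries lay above both liver libraries in RPKM, but the log2 fold change from the counts crossed 0 among the fits with 1 library left out. Hba-a2 carried the same reads within 4 counts in each library, so the 2 alpha copies count as 1 measurement. With the protocol term, Hba-a1 was instead called higher in liver (log2 -3.37), where the EB libraries of the 2 protocols differed by 3.70 on the log2 scale. Adult beta globin behaved differently. Hbb-b1 (Hbb-bt, chromosome 7, 103812524 to 103813923) stood at 13.8 and 19.8 RPKM in mesoderm and 176 and 482 RPKM in liver, 22.3-fold higher in liver (log2 -4.48 ± 1.11, edgeR adjusted p = 0.012). Hbb-b2 had the same counts within 1 read. With the protocol term Hbb-b1 stayed called higher in liver (log2 -8.34). The EB libraries of the 2 protocols differed in it by 3.84 on the log2 scale, at 0.451 RPKM or less. The call on Hbb-b1 was lost when mesoderm A, mesoderm B or liver B was left out (edgeR adjusted p = 0.0949, 0.0713 and 0.0704). Beta-s (RefSeq Hbb-bs, chromosome 7, 103826523 to 103827928), a near-identical adult copy named after its values were seen, stood at 134 and 196 RPKM in mesoderm and 132 and 292 RPKM in liver and was not called (log2 -0.55 ± 0.90). It was called higher in liver with the protocol term (log2 -5.62), and the EB libraries of the 2 protocols differed in it by 5.05 on the log2 scale. How the counting split reads between these adult beta copies is not given in the sources used here, so the level of each single copy is uncertain.

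As a share of all alpha-like RPKM, embryonic Hba-x made up 50.4% and 50.3% in mesoderm A and B and 3.32% and 1.66% in liver A and B (means 50.4% ± 0.104 and 2.49% ± 1.17, SD, n = 2). When the 2 alpha copies with the same reads were taken once, the shares were 67.0% and 66.8% in mesoderm and 6.41% and 3.26% in liver. Embryonic genes made up nearly all beta-like RPKM in mesoderm, at 99.9% in both libraries, and 75.7% and 51.9% in liver A and B (mean 63.8% ± 16.8, SD, n = 2). With the copies taken once and Beta-s added, the beta-like shares were 99.6% and 99.3% in mesoderm and 78.3% and 57.7% in liver. By these shares the liver libraries still held more embryonic than adult beta-like RNA per length, while their alpha-like RNA was mostly adult. This order of different genes rests on ScriptSeq libraries alone. In the EBs, dUTP libraries exceeded ScriptSeq libraries by 3.84 (Hbb-b1) and 5.05 (Beta-s) on the log2 scale, against 1.33 (Hbb-y) and 1.77 (Hbb-bh1). Both adult genes were at 0.77 RPKM or less there. How far protocol shifts the shares was not tested. The tissues did not overlap in either share. An exact permutation test of 2 libraries against 2 cannot give a p below 1 in 3, so none was run. Liver B had the lower embryonic share of both kinds. With the copies taken once and Beta-s included, beta-like RPKM exceeded alpha-like RPKM by 6.91-fold and 5.47-fold in mesoderm and by 1.53-fold and 1.02-fold in liver, a difference that was not tested.

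**Figure D2:**
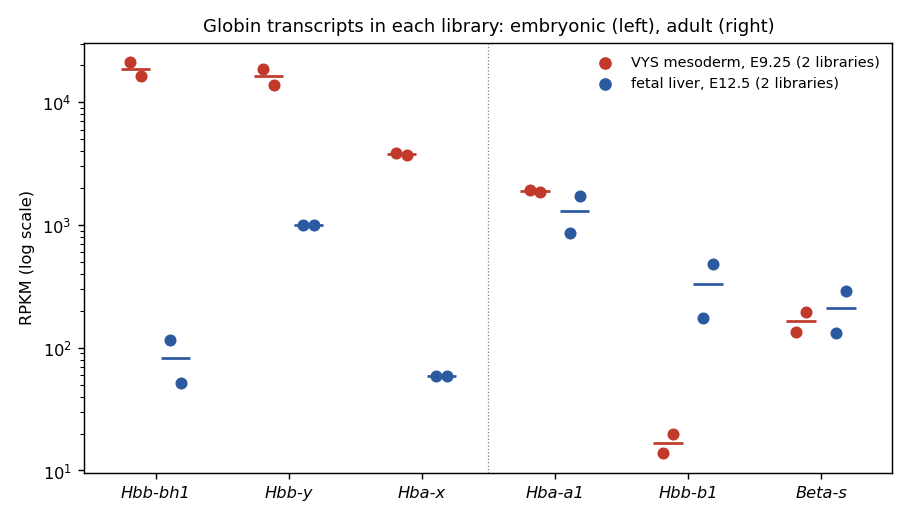
RPKM (log scale) of 6 globin transcripts in each library, with bars at the mean of the 2 libraries of a tissue. The embryonic genes separate the tissues by more than 1 order of magnitude, Hba-a1 and Beta-s lie close together, and Hbb-b1 is higher in liver.

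Of 10 enzymes and transporters of heme synthesis, 1 was called higher in mesoderm and 1 higher in liver, with a median log2 fold change of -0.09. Alas2, the first enzyme of the pathway in red cells, stood at 128 and 103 RPKM in mesoderm and 108 and 230.2 RPKM in liver, and its libraries overlapped. The gene called in liver was Cpox, coproporphyrinogen oxidase, with 109 and 119 RPKM in mesoderm and 472 and 555 RPKM in liver (log2 -2.37 ± 0.41, edgeR adjusted p = 0.00247). Alad, the second enzyme, stood at 167 and 159 RPKM in mesoderm and 27.3 and 54.4 RPKM in liver (log2 1.804 ± 0.63, edgeR adjusted p = 0.046). The EB libraries of the 2 protocols differed by 1.69 in Alad, and its call was lost with the protocol term (log2 0.10) and when any 1 of the 4 libraries was left out. That on Cpox held in each of these fits. The counts with the protocol term were 3 of 10 higher in liver and none in mesoderm.

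Most genes of the red cell membrane and of late maturation were higher in liver. Of 29 measured genes, 18 were called higher in liver and none in mesoderm (17.1% of all genes were called higher in liver), and the median log2 fold change was -1.66. Several of these genes build the membrane skeleton. Spnb1, beta-spectrin, stood at 16.4 and 23.2 RPKM in mesoderm and 210.0 and 293 RPKM in liver (log2 -3.86 ± 0.48, edgeR adjusted p = 0.000637). Its partner Spna1, alpha-spectrin, stood at 44.3 and 49 RPKM and 175 and 289.6 RPKM (log2 -2.51 ± 0.33), and Ank1, Epb4.1 and Epb4.9, which anchor or bundle the skeleton, were also called. Slc4a1, the band 3 anion exchanger that the skeleton binds, stood at 70.0 and 83.1 RPKM in mesoderm and 259 and 518 RPKM in liver (log2 -2.53 ± 0.71). Both liver libraries lay above both mesoderm libraries for these genes, as for 30.6% of all genes. Kel, the Kell antigen, was 12.7-fold higher in liver, and Hemgn, a nuclear protein of maturing cells, 11-fold. Trim58, a ubiquitin ligase that acts in loss of the nucleus, stood at 0.72 and 0.613 RPKM in mesoderm and 7.33 and 13.7 RPKM in liver (log2 -4.17 ± 0.63, edgeR adjusted p = 0.00141). This call was lost with the protocol term, which is poorly determined for Trim58, at 0.016 RPKM or less in the EBs. Car1, a carbonic anhydrase of definitive cells, had the largest difference of the list but was low in both (0.029 and 0.056 RPKM and 0.949 and 1.35 RPKM, log2 -4.89 ± 1.04). Other red cell genes were not called. Car2, a carbonic anhydrase, stood at 207 and 209 RPKM in mesoderm and 157 and 289 RPKM in liver, and Rhag and Epb4.2 also overlapped between the tissues. For Epor and Bnip3l both mesoderm libraries lay above both liver libraries, as for 47.4% of all genes. Epor stood at 9.93 and 9.76 RPKM in mesoderm and 5.46 and 8.44 RPKM in liver (log2 0.30 ± 0.39). Bnip3l stood at 30.0 and 28.2 RPKM and 9.81 and 18.8 RPKM (log2 0.83 ± 0.54). With the protocol term their log2 fold changes turned to -0.36 and -0.65. Ahsp, the other gene fixed in this list, was not analysed here. Without any 1 library 12 to 18 genes were called, fewest without mesoderm A. The calls on Spnb1, Spna1, Ank1, Epb4.1, Epb4.9, Kel, Hemgn and Trim58 held without each library, that on Slc4a1 only without liver A.

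The transcription factors shared by both red cell lineages leaned towards the liver, and 7 of 11 were called higher there (median log2 fold change -1.08). Over all genes 17.1% were called higher in liver, and 13.9% with the protocol term. Gata1, the master factor of the lineage, stood at 13.8 and 13.7 RPKM in mesoderm and 16.3 and 22.4 RPKM in liver and just missed the threshold (log2 -0.69 ± 0.25, edgeR adjusted p = 0.056). Klf1, which drives red cell genes through CACCC sites, stood at 24.2 and 27.2 RPKM and 34 and 61.2 RPKM (log2 -1.08 ± 0.37), and Tal1 at 19.3 and 21.8 RPKM and 54.9 and 63.7 RPKM (log2 -1.73 ± 0.50). Lmo2, a bridging partner of Tal1, stood at 17.1 and 16.6 RPKM in mesoderm and 82.3 and 84.3 RPKM in liver (log2 -2.51 ± 0.64). Klf3, a repressor that is itself a Klf1 target, had the largest difference of the list and stood at 3.73 and 3.81 RPKM and 23.1 and 27.3 RPKM (log2 -2.94 ± 0.25, edgeR adjusted p = 0.000228). With the protocol term 2 of the 11 remained called, Klf3 and Ldb1, and leaving out any 1 of the 4 libraries left 1 (without mesoderm A) to 3 (without liver A) called, Klf3 each time.

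The regulators of the definitive programme were all called higher in liver, 6 of 6, with a median log2 fold change of -2.76. Bcl11a, the repressor that silences embryonic globin genes, stood at 0.101 and 0.158 RPKM in mesoderm and 5.48 and 6.32 RPKM in liver, 52-fold higher (log2 -5.699 ± 0.87, edgeR adjusted p = 0.00151). Myb, needed for definitive but not for primitive blood, stood at 1.27 and 1.58 RPKM and 13.3 and 15 RPKM (log2 -3.51 ± 0.54, edgeR adjusted p = 0.00148). Bcl11a was thus close to 0 in mesoderm, and Myb was low there. Zbtb7a, another globin repressor, stood at 1.78 and 2.47 RPKM in mesoderm and 11.4 and 14.3 RPKM in liver (log2 -2.79 ± 0.28), and the glucocorticoid receptor Nr3c1 at 1.91 and 1.86 RPKM and 11.1 and 10.7 RPKM (log2 -2.73 ± 0.45). Sox6, a partner of Bcl11a, was 4.04-fold higher in liver and Ikzf1 2.4-fold, and the calls on these 2 were lost with the protocol term. Without any 1 library, 4 or 5 of the 6 were called, among them Bcl11a, Myb, Zbtb7a and Nr3c1 each time.

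The paired RNA-binding genes Lin28a and Lin28b, which block maturation of let-7 miRNAs, went opposite ways. Lin28a stood at 32.7 and 41.9 RPKM in mesoderm and 1.3 and 1.15 RPKM in liver (log2 4.73 ± 0.45, edgeR adjusted p = 0.000271). Lin28b stood at 5.43 and 6.15 RPKM in mesoderm and 11.8 and 12.498 RPKM in liver (log2 -1.27 ± 0.42, edgeR adjusted p = 0.0403), with no overlap in either gene. The call on Lin28a held with the protocol term and without any 1 library, and that on Lin28b was lost in each of these fits. Lin28a was at a mean of 156 RPKM in the E9.25 ysE libraries and mesoderm A and B reached 20.9% and 26.8% of it, where the ysE list reached 12.3% and 18.6%. How much of the mesoderm level came from ysE was not tested. Lin28b stood at 0.406 RPKM in ysE, below both tissues. The other 4 genes of this list were not called. Igf2bp3 stood at 35.3 and 37.2 RPKM in mesoderm and 24 and 20.8 RPKM in liver.

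**Figure D3:**
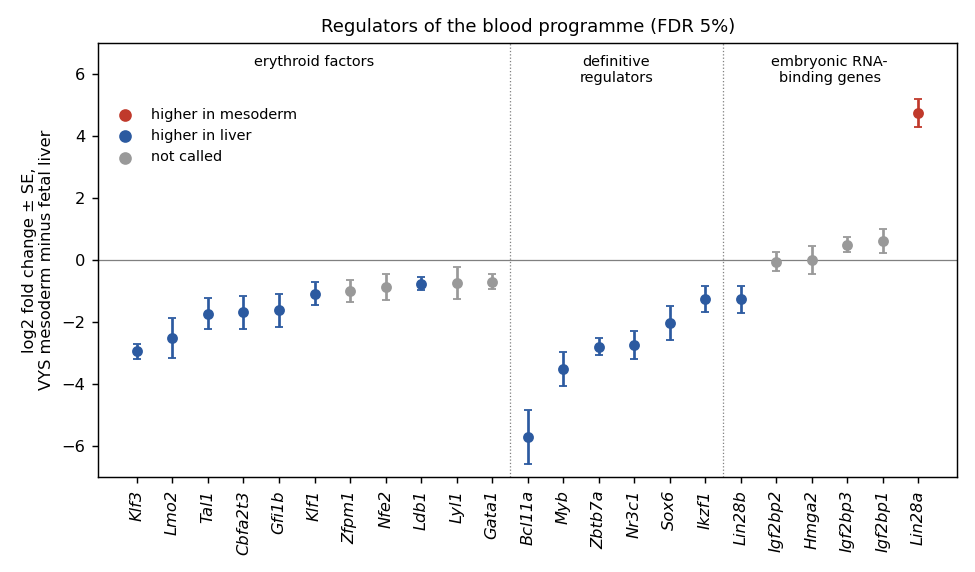
Log2 fold change (VYS mesoderm minus fetal liver) with its SE for erythroid transcription factors, definitive regulators and embryonic RNA-binding genes; colours mark the edgeR call at an FDR of 5%. Bcl11a and Myb lie lowest among the definitive regulators, and Lin28a is the highest gene shown.

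Stem and progenitor genes fell on both sides, with 3 of 25 called higher in mesoderm and 6 higher in liver (21.4% and 17.1% of all genes, median log2 fold change of the list -0.40). Cd34, carried by early progenitors and also by endothelium, stood at 36.1 and 31 RPKM in mesoderm and 3.39 and 4.9 RPKM in liver (log2 2.82 ± 0.87, edgeR adjusted p = 0.0296). Mycn was 2.33-fold and Csf2rb, a shared cytokine receptor chain, 4.15-fold higher in mesoderm. In liver the called genes were Itga4, Vav1, Kit, Hlf, Flt3 and Cebpa. Itga4, the alpha4 integrin with which progenitors hold on to the niche, stood at 2.57 and 2.51 RPKM in mesoderm and 17.5 and 21.9 RPKM in liver (log2 -3.15 ± 0.63, edgeR adjusted p = 0.00454). Vav1, a signalling protein found in all blood cells, stood at 1.02 and 1.56 RPKM and 11.8 and 14.5 RPKM (log2 -3.54 ± 0.44). Kit, the receptor of stem cell factor, was low, at 1.97 and 1.39 RPKM and 3.9 and 4.69 RPKM (log2 -1.56 ± 0.41), and Runx1, needed for definitive stem cells, overlapped at 1.18 and 1.0 RPKM and 1.06 and 1.35 RPKM. With the protocol term the counts were 8 and 4. Procr, Erg and Cd93, which are shared with endothelium, and also Gata2 and Hoxa9 were then called higher in mesoderm. Hoxa9, at 0.184 and 0.056 RPKM in mesoderm and 0.281 and 0.138 RPKM in liver, turned from log2 -1.03 to 3.82. Without any 1 library 1 gene, Mycn, was called higher in mesoderm, and 4 or 5 genes in liver.

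Of 16 megakaryocyte and platelet genes, 4 were called higher in liver and none in mesoderm (17.1% and 21.4% of all genes, median log2 fold change of the list -1.51). Tubb1, the tubulin of platelets, stood at 7.23 and 12.9 RPKM in mesoderm and 60.3 and 79.7 RPKM in liver (log2 -2.99 ± 0.79, edgeR adjusted p = 0.0155), and Ppbp at 2.49 and 5.92 RPKM and 17.8 and 30.2 RPKM (log2 -2.696 ± 0.53). Pf4, platelet factor 4, was abundant in both, at 53.6 and 64.3 RPKM and 46.3 and 93.2 RPKM, and its libraries overlapped. Platelet genes were thus present at both sites. Itga2b, also an early blood marker, stood at 14.4 and 15.2 RPKM and 26 and 27.4 RPKM (log2 -1.05 ± 0.58). Of the 4 calls, that on Ppbp held with the protocol term, and it also held when any 1 library was left out, where 1 (without mesoderm A) to 3 (without liver A) calls were made.

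Macrophage and granulocyte genes were higher in liver for 14 of 30 members and higher in mesoderm for 2 (median log2 fold change -2.02). Timd4, a receptor for dying cells on resident macrophages, stood at 0.012 and 0.027 RPKM in mesoderm and 3.45 and 4.92 RPKM in liver (log2 -7.86 ± 1.59, edgeR adjusted p = 0.00495), and Vcam1, the adhesion molecule of island macrophages, at 1.02 and 1.1 RPKM and 14.6 and 21.6 RPKM (log2 -4.29 ± 0.94). Among the 10 largest differences towards liver over all genes with at least 10 RPKM were the macrophage receptor Marco (0 and 0.0080 RPKM in mesoderm, 7.41 and 17.6 RPKM in liver) and the secreted macrophage protein Cd5l (0.0040 and 0.0070 and 10.2 and 20.2 RPKM). The call on Marco was lost with the protocol term, although its log2 fold change was still -7.82, and that on Cd5l held. Marco and Cd5l reached only 0.009 and 0.034 RPKM in the EBs, so the term is poorly determined for both. Emr1, the F4/80 antigen, stood at 0.223 and 0.278 RPKM in mesoderm and 3.85 and 4.84 RPKM in liver (log2 -4.31 ± 1.29), and Lyz2, lysozyme, at 2.56 and 2.98 RPKM and 22.3 and 43.7 RPKM (log2 -3.77 ± 0.95). Csf1r, the growth factor receptor of the lineage, stood at 2.62 and 2.2 RPKM in mesoderm and 3.31 and 4.99 RPKM in liver and was not called (log2 -0.98 ± 0.91). Among granule genes, Mpo, Elane, Ctsg, S100a9, Ngp, Camp and Ltf were called higher in liver. Camp, a granule peptide, had 0 reads in both mesoderm libraries and 8.99 and 7.52 RPKM in liver, at least 511.1-fold higher when the mesoderm is set to the floor of 3 reads over both libraries. S100a9 stood at 0.161 and 0.184 RPKM in mesoderm and 11.4 and 25.3 RPKM in liver (log2 -6.904 ± 1.09). Myeloperoxidase (Mpo) was detected at both sites, with 1.97 and 3.88 RPKM and 15.7 and 19.9 RPKM (log2 -2.79 ± 0.84). Its log2 fold change turned to 0.21 with the protocol term, and the call was lost. Mpo reached only 0.062 RPKM in the EBs, so the term is poorly determined for it. Prtn3, proteinase 3 of granules, was not called, at 0.988 and 2.05 RPKM in mesoderm and 0.772 and 1.22 RPKM in liver, and neither was S100a8, at 2.47 and 1.56 RPKM and 1.1 and 2.21 RPKM. The 2 genes higher in mesoderm, Mrc1 (57 and 55.8 and 8.02 and 9.72 RPKM) and Maf (14.9 and 17.5 and 2.27 and 2.68 RPKM), are also expressed by endothelium. With the protocol term 5 of the 30 were called higher in liver, namely Vcam1, Itgam, Elane, Ngp and Camp. Elane, Ngp and Camp reached only 0.026, 0.082 and 0.04 RPKM in the EBs, so the term is poorly determined for them as well. Without any 1 library 6 (without mesoderm A) to 11 (without liver A) were called, and Camp and S100a9 in each case.

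Lymphoid genes were barely detected at either site. Of 12 genes 10 passed the filter on low counts, and 1, Rag1, was called higher in liver at 0.010 and 0.011 RPKM in mesoderm and 0.053 and 0.112 RPKM in liver (edgeR adjusted p = 0.0184), a call lost with the protocol term. No lymphoid gene exceeded the level of Cd79b, at 1.23 and 1.26 RPKM in mesoderm and 0.395 and 0.427 RPKM in liver.

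Endothelial genes gave the most calls of any list on the mesoderm side. Of 33 pan-vascular genes, 25 were called higher in mesoderm and 1 higher in liver, against 21.4% and 17.1% of all genes, and the median log2 fold change was 2.32. Egfl7, secreted by endothelium, was the most abundant, at 116 and 71.2 RPKM in mesoderm and 17.9 and 22.6 RPKM in liver (log2 2.01 ± 0.30, edgeR adjusted p = 0.00144). Gja5, a connexin of arteries, had the largest difference. It stood at 30.3 and 23.1 RPKM in mesoderm and 0.79 and 0.607 RPKM in liver (log2 5.05 ± 0.91, edgeR adjusted p = 0.00297), and Cldn5, the endothelial claudin, at 49.5 and 34.4 RPKM and 1.42 and 1.7 RPKM (log2 4.54 ± 0.93). Emcn, a sialomucin of veins and capillaries, stood at 13.3 and 9.38 RPKM in mesoderm and 0.46 and 0.179 RPKM in liver (log2 4.92 ± 1.08), and the factor Sox18 at 1.99 and 1.72 RPKM and 0.048 and 0.073 RPKM (log2 4.73 ± 1.16). Among receptors, Aplnr, the apelin receptor, stood at 22.6 and 23.1 RPKM in mesoderm and 1.25 and 0.577 RPKM in liver (log2 4.43 ± 0.86). Tek, the angiopoietin receptor, stood at 47.5 and 41.6 RPKM and 8.89 and 10.5 RPKM (log2 1.998 ± 0.64), and Nrp1, a VEGF co-receptor, at 56.6 and 47.6 RPKM and 14.1 and 13.8 RPKM (log2 1.701 ± 0.59). Cdh5, the cadherin of endothelium, was like Kdr not called, although its libraries did not overlap (19.4 and 20.8 and 5.32 and 5.67 RPKM, log2 1.67 ± 1.03, edgeR adjusted p = 0.222). It was called with the protocol term (log2 4.51), where the EB libraries differed by -2.84 on the log2 scale (dUTP minus ScriptSeq). The arterial ligand Efnb2 and its venous receptor Ephb4 were not called. Vwf was the exception, at 2.05 and 1.91 RPKM in mesoderm and 6.15 and 8.78 RPKM in liver (log2 -2.11 ± 0.46, edgeR adjusted p = 0.00658). This clotting factor is made by megakaryocytes as well as endothelium. Leaving out 1 library lowered the 25 calls to 11 without liver B, 14 without liver A and 15 without either mesoderm library, and the protocol term gave 25. The calls on Gja5, Cldn5, Egfl7 and Vwf held without each library, and those on Tek and Nrp1 were lost without any 1 of them. That on Vwf was lost with the protocol term.

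Most genes used to mark liver sinusoids were higher in yolk sac mesoderm. Of 9 such genes, 6 were called higher in mesoderm and none in liver (median log2 fold change 2.11). Lyve1, a hyaluronan receptor, stood at 134 and 157 RPKM in mesoderm and 4.67 and 8.4 RPKM in liver, 19.5-fold higher (log2 4.28 ± 0.46, edgeR adjusted p = 0.000412). The scavenger receptor Stab2 stood at 65.6 and 61.7 RPKM and 10.1 and 14.8 RPKM (log2 2.16 ± 0.55), and the fatty acid receptor Cd36 at 36.6 and 32.3 RPKM and 2.18 and 2.75 RPKM (log2 3.604 ± 0.46). Stab1, Oit3 and Maf made up the 6. Clec4g, a lectin of mature sinusoids, was low at both sites (0.565 and 0.574 and 0.874 and 0.891 RPKM). Both liver libraries lay above both mesoderm libraries for Clec4g and for Fcgr2b (0.18 and 0.512 and 0.712 and 1.42 RPKM), as for 30.6% of all genes. Neither was called. Without any 1 library 3 or 4 of the 9 were called, Lyve1, Cd36 and Maf each time. With the protocol term 4 were called, those 3 and Stab2.

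Of 25 mesenchyme and matrix genes, 11 were called higher in mesoderm and 3 higher in liver (median log2 fold change 2.02). Fibrillar collagens were among the genes higher in mesoderm. Col3a1 stood at 774 and 644 RPKM in mesoderm and 72.6 and 52.1 RPKM in liver (log2 3.299 ± 0.96), and Col1a1 at 174 and 198 RPKM and 3.44 and 3.8 RPKM (log2 5.48 ± 1.06, edgeR adjusted p = 0.00409). Lum, a proteoglycan that orders collagen fibrils, stood at 249 and 221 RPKM and 4.31 and 4.61 RPKM (log2 5.52 ± 1.44), and Twist2, a mesenchymal factor, at 7.96 and 4.64 RPKM and 0.26 and 0.020 RPKM (log2 5.24 ± 0.98). Of the 3 chains of collagen VI in the list, 2 were called higher in liver. Col6a1 stood at 7.54 and 7.3 RPKM in mesoderm and 25.2 and 20.0 RPKM in liver (log2 -1.81 ± 0.64, edgeR adjusted p = 0.0486), and Col6a2 at 2.74 and 2.89 RPKM and 11.8 and 10.8 RPKM (log2 -2.204 ± 0.58). Col6a3, at 3.91 and 4.31 RPKM and 12 and 10.7 RPKM, was not called (log2 -1.66 ± 1.13), and its log2 fold change turned to 0.69 with the protocol term. The calls on Col6a1 and Col6a2 were lost with the protocol term, under which 16 genes were called higher in mesoderm and none in liver. Prrx1, a factor of embryonic body and limb mesenchyme, was called higher in liver but was low and uneven, at 0.086 and 0.021 RPKM in mesoderm and 0.788 and 0.232 RPKM in liver. Without either liver library 5 genes, and without either mesoderm library 7, were called higher in mesoderm. Postn, Col1a1 and Twist2 were called each time, and Col3a1 not once.

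Contractile genes gave 4 calls in mesoderm and 1 in liver among 13, against 21.4% and 17.1% of all genes. The median log2 fold change of the list was -0.15. Acta2, smooth muscle actin, stood at 133 and 109 RPKM in mesoderm and 9.56 and 3.5 RPKM in liver (log2 3.998 ± 0.70, edgeR adjusted p = 0.00272), with Tagln at 67.3 and 44.6 RPKM and 2.87 and 2.4 RPKM (log2 4.2 ± 0.86). Myh11, the myosin of mature smooth muscle, stood instead at 0.223 and 0.133 RPKM in mesoderm and 6.49 and 1.21 RPKM in liver (log2 -4.66 ± 0.91), most of it in liver A, the library that also held more Barx1 and Myh3, genes of stomach and skeletal muscle (3.41 and 0.221 RPKM and 5.83 and 1.05 RPKM in liver A and B). Their part in the result was not tested. The other 8 genes, such as Tpm1 and Cald1, were not called. Among 10 mesothelium genes, 2 were called higher in mesoderm and 1 in liver, against 21.4% and 17.1% of all genes. Krt19 stood at 47.1 and 32.8 RPKM in mesoderm and 1.92 and 1.15 RPKM in liver (log2 4.48 ± 0.49) and was also present in ysE, at 20.3 RPKM. Upk1b, an uroplakin, stood at 6.89 and 5.44 RPKM and 0.349 and 0.504 RPKM (log2 3.65 ± 0.82). Of 10 genes of hepatic stellate cells, 4 were called higher in liver and none in mesoderm. Reln, reelin, stood at 4.97 and 5.72 RPKM in mesoderm and 45 and 48.5 RPKM in liver (log2 -3.33 ± 0.59, edgeR adjusted p = 0.00288), and Lhx2, which keeps stellate cells quiescent, at 0.126 and 0.033 RPKM and 0.829 and 0.969 RPKM (log2 -3.72 ± 0.78). With the protocol term, 3 stellate genes were called higher in liver and 2 in mesoderm, namely Hand2 (log2 4.16) and Colec11 (log2 2.96), and the mesothelium counts were 4 in mesoderm and 1 in liver. In these 3 lists, the calls on Acta2, Tagln, Cnn2, Myh11, Krt19, Gpm6a, Reln and Lhx2 held without each of the 4 libraries, and that on Upk1b was lost without liver A.

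Regulators of extra-embryonic mesoderm were higher in mesoderm for 9 of 14 members and higher in liver for 1 (median log2 fold change 3.40). Foxf1a, a forkhead factor of the yolk sac and allantois, stood at 28.2 and 31.7 RPKM in mesoderm and 0.84 and 0.456 RPKM in liver, 39.9-fold higher (log2 5.32 ± 0.71, edgeR adjusted p = 0.000838). Hand1, needed for yolk sac vessels, stood at 10.2 and 8.35 RPKM and 0.215 and 0.221 RPKM (log2 5.205 ± 0.90), and the T-box factor Tbx20 at 16.2 and 16.7 RPKM and 0.585 and 0.405 RPKM (log2 4.85 ± 0.55). Liver levels of these 3 stayed below 1 RPKM. Bmp4, the signal for posterior mesoderm and blood, stood at 18.3 and 17.6 RPKM in mesoderm and 1.18 and 0.473 RPKM in liver (log2 4.22 ± 0.54), and its target Msx1 at 2.42 and 2.1 RPKM and 0.023 and 0.014 RPKM (log2 6.68 ± 0.99). Msx1 reached 2.16 RPKM in ysE, close to its mesoderm level. Cdx2, also among the 9, stood at 0.435 and 0.745 RPKM in mesoderm and at a higher mean of 5.94 RPKM in E9.25 ysE. The part of ysE RNA in these levels was not tested. Tbx3, which acts in hepatoblasts, was the gene higher in liver (0.66 and 0.708 and 2.83 and 2.13 RPKM, log2 -2.06 ± 0.43). Its call was lost with the protocol term, which gave 10 higher in mesoderm and none in liver. In mesoderm, 7 to 9 of the 14 were called without any 1 library.

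**Figure D4:**
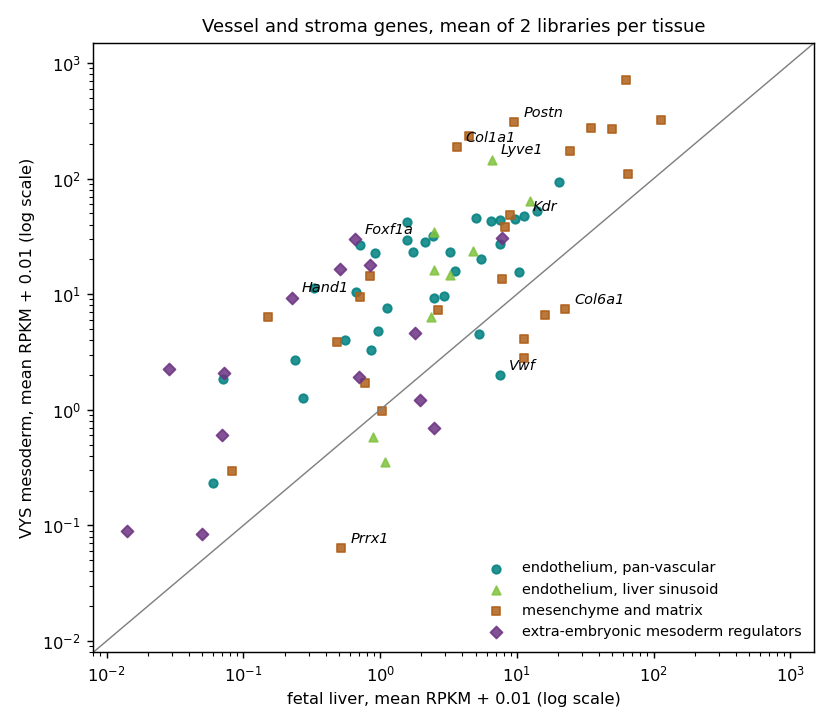
Mean RPKM in fetal liver (x) and VYS mesoderm (y), both plus 0.01 on log scales, for genes of 4 lists; the line marks equal levels. Most endothelial genes and mesoderm regulators lie above the line, while Vwf, Col6a1 and Prrx1 lie below it.

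Among signals that support blood and vessel cells, 5 of 21 were called higher in mesoderm and 2 higher in liver (median log2 fold change 0.49). Over all genes 21.4% and 17.1% were called so, and the mesoderm count was near that share. Vegfc, a growth factor of veins and lymphatics, stood at 5.22 and 4.45 RPKM in mesoderm and 0.732 and 0.961 RPKM in liver (log2 2.31 ± 0.31, edgeR adjusted p = 0.000857), and Angptl2, Pgf and Csf1 were higher in mesoderm by smaller folds (2.59, 2.89 and 1.81). The calls on Angptl2 and Pgf were lost with the protocol term. Ihh, made by the endoderm, was low in mesoderm (0.549 and 0.941 RPKM) and reached 12.4% and 21.2% of its ysE level there, close to the ysE list as a whole. Erythropoietin (Epo), the hormone of red cell production, stood at 0.431 and 0.44 RPKM in liver against 0 and 0.084 RPKM in mesoderm. The call on Epo was near the threshold (edgeR adjusted p = 0.0497), was lost with the protocol term, and held only without mesoderm B, whereas that on Vegfc held in each of these fits. Kitl, stem cell factor, did not differ by a call, at 9.01 and 8.85 RPKM in mesoderm and 4.82 and 5.68 RPKM in liver (log2 0.57 ± 0.37). Igf2 was by far the most abundant ligand at both sites, at 292 and 322 RPKM and 114 and 173 RPKM (log2 0.9 ± 0.49).

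Among 10 genes of iron uptake and storage, 1 was called higher in mesoderm and 4 higher in liver. Tfrc, the transferrin receptor, was not called, at 107 and 126 RPKM in mesoderm and 127 and 189 RPKM in liver (log2 -0.64 ± 0.31), nor was transferrin itself (Trf, log2 -1.94 ± 1.14). The 2 ferritin chains were called in opposite directions. Fth1, the heavy chain, stood at 170.3 and 219 RPKM in mesoderm and 290.3 and 419.7 RPKM in liver (log2 -1.06 ± 0.36), whereas Ftl1, the light chain, stood at 320.1 and 405 RPKM and 24.9 and 45.6 RPKM (log2 3.17 ± 1.07, edgeR adjusted p = 0.0417). The EB libraries of the 2 protocols differed in Ftl1 by 3.16 on the log2 scale, as much as the tissues did, and with the protocol term the difference was 0.01. Both ferritin calls were lost with that term and without any 1 library, where the call on Slc25a37, the mitochondrial iron importer (38.4 and 46.7 and 77 and 117 RPKM), was kept each time. Tfrc and Tfr2, a further transferrin receptor, were called higher in liver with the protocol term (log2 -1.13 and -4.46).

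Genes of hepatoblasts and hepatocytes lay mostly on the liver side. Of 30 genes, 14 were called higher in liver and 2 higher in mesoderm (median log2 fold change -2.29). Ahsg, fetuin, stood at 0 and 0.020 RPKM in mesoderm and 46.9 and 115 RPKM in liver, and Itih2 at 0.642 and 0.995 RPKM and 265 and 375 RPKM (log2 -8.801 ± 1.20, edgeR adjusted p = 0.000917). Alb differed by -13.43 ± 2.32 on the log2 scale, and Prox1, a factor of hepatoblasts, by -4.91 ± 0.37. These genes were at or below 1 RPKM in mesoderm, and their calls held without each library, where 10 to 12 of the 30 were called higher in liver. The protocol term gave 9 of the 30 higher in liver and 3 in mesoderm. Several secreted proteins that were abundant in ysE were not called. Afp, alpha-fetoprotein, stood at 700.4 and 1255 RPKM in mesoderm and 1396 and 2471 RPKM in liver (log2 -1.17 ± 1.28), and at a mean of 6349 RPKM in E9.25 ysE, of which mesoderm A and B held 11% and 19.8%. Ttr and Apoa1, carriers of thyroid hormone and lipid, overlapped between the tissues, with Ttr at 113 and 188 RPKM in mesoderm and 49.2 and 130.1 RPKM in liver, and Apoa1 at 142 and 251 RPKM and 145 and 278 RPKM. The part of ysE RNA in these mesoderm levels was not tested. Krt8 and Krt18, keratins of simple epithelia, were the 2 genes called higher in mesoderm (312 and 249 RPKM for Krt8 in mesoderm and 58.9 and 62.7 RPKM in liver, log2 2.0 ± 0.35). In ysE, Krt8 stood at 393 RPKM.

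The ysE genes themselves were called higher in mesoderm for 8 of 11 members and in liver for none (median log2 fold change 3.19), and for 5 without any 1 library. Cubn, the cubilin receptor of the absorptive endoderm, stood at 61.1 and 102 RPKM in mesoderm and 0.435 and 0.55 RPKM in liver (log2 7.18 ± 0.80, edgeR adjusted p = 0.000446), with a mean of 382 RPKM in ysE. Its partner Amn stood at 19.5 and 31.9 RPKM and 0.078 and 0.070 RPKM (log2 8.22 ± 0.97), with 212 RPKM in ysE. In every gene of the list the mesoderm libraries lay below both E9.25 ysE libraries. Mesoderm B was the higher of the mesoderm libraries in 11 of the 11 genes.

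**Figure D5:**
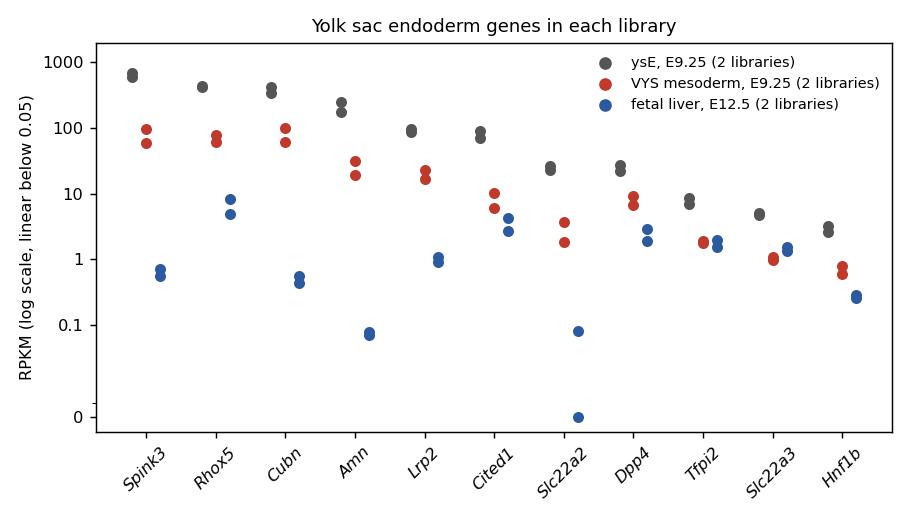
RPKM (log scale, linear below 0.05) of 11 yolk sac endoderm genes in the 2 libraries each of E9.25 ysE, E9.25 VYS mesoderm and E12.5 fetal liver. The mesoderm lies below ysE for each gene and above the liver for 9 of them, as for 47.4% of all genes.

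Over all genes, the largest differences towards mesoderm with at least 10 RPKM included Tdh, threonine dehydrogenase, at 8.79 and 17.4 RPKM in mesoderm and 0 reads in both liver libraries, at least 1.14e+03-fold higher at the floor of 3 reads. Tdh stood at 135 RPKM in ysE. Tdo2, tryptophan dioxygenase, stood at 149.6 and 117 RPKM in mesoderm, 0.101 and 0.193 RPKM in liver and 5.34 RPKM in ysE (log2 9.63 ± 0.96, edgeR adjusted p = 0.000298), so that its mesoderm level exceeded that of ysE. The other 8 of the 10 were short or non-polyadenylated RNAs such as Snora64 (1118 and 481 and 1.04 and 1.68 RPKM), and 7 of these 8 were also called higher in the dUTP than in the ScriptSeq libraries of the EBs (Snora64 by 3.71 on the log2 scale). Towards the liver, the 10 included the hepatocyte genes Serpina6, Alb, Ahsg, Apoh and Itih2, the macrophage genes Marco and Cd5l, the placental protease Ctsq, and Apol8. Apol8 stood at 0.014 and 0.024 RPKM in mesoderm and 28.8 and 28.2 RPKM in liver (log2 -10.66 ± 0.87, edgeR adjusted p = 0.000204).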

How the data were processed

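RNA-seq was analysed in 2 libraries each of E9.25 VYS mesoderm (dUTP) and E12.5 fetal liver (ScriptSeq v1). The authors aligned reads with GSNAP to mm10, and deposited raw counts and RPKM for 30455 RefSeq transcripts, 26903 of them protein-coding. How reads with several alignments were counted, and which reads made up the library size of the RPKM, is not given in the sources used here. From the deposited counts, edgeR 4.0.16 in R 4.3.3 (limma 3.58.1) was fitted to all 11 RNA-seq libraries in 5 groups (filterByExpr, TMM, quasi-likelihood test), so that the tissues share 1 estimate of the spread (biological coefficient of variation 0.3995). The cystic EBs of both clones, both protocols and both days formed 1 of these groups. P-values were adjusted over 24858 transcripts by the Benjamini-Hochberg method at an FDR of 5%, and the SE was taken from the F statistic. DESeq2 1.42.0 was the other tool.

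Of several transcripts of a gene, that with the most counts on average was used. The members and the lists (335 genes, 334 measured, 332 tested) were chosen with earlier results of these data known. Named were the globins, the 3 markers, up to 3 list members with the highest RPKM and up to 3 with the largest fold change in each direction, and over all genes the 10 largest changes per direction with at least 10 RPKM and no overlap. Further list members were named with their values known. A fold against a tissue with 0 reads is a lower bound at 3 reads over both libraries. The protocol term was fitted as an added covariate, identified by the EB clones. No column lacked a sample. Promoters came from RefSeq (GRCm38.p6). Alternatives covered scaling, filters, the samples in the fit, protocol and single libraries left out. The authors' files on other assays were not used here. Some genes of the lists and of the largest changes are not reported here by name.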

Additional observations from a re-analysis of the deposited data

How the results depend on the processing

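Counts over all transcripts kept within 1.5 times of 5219 (mesoderm) and 4435 (liver) under the other scalings, tools, filters and sample sets tried, at 4230 to 7207 and 3482 to 6277. Leaving out 1 library gave 3022 to 3112 transcripts higher in mesoderm and 1834 to 2863 higher in liver, so fewer were called whichever library was left out. DESeq2 called 5468 and 5840. Counts in the gene lists were less stable. Of 44 list counts, 1 per list and direction, 17 moved by over 1.5 times, or from 0, with only the mesoderm and liver libraries in the fit, 16 with the protocol term, 11 with the EBs split by clone, 16 to 20 without 1 library and at most 5 under each other alternative. The upper-quartile scaling moved the median of all transcripts from 0.09 to -0.06 on the log2 scale. The letters A and B pair no samples by the labels, and the deviations of mesoderm A and liver A correlated at only 0.17. With the letter as a replicate block, 5637 and 4691 transcripts were called, and 3 of the 126 calls on named genes were lost. In the EBs the letter goes with clone and protocol, so these counts cannot show whether the letters pair mesoderm with liver.

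The difference in the embryonic share of alpha-like globin, 47.9 percentage points, was 49.4 from counts in place of RPKM and 62.1 with copies of the same reads taken once (added after seeing the data), and 47.0 to 48.7 without 1 library. That of beta-like globin, 36.1 points, was 22.5 with the copies taken once and 31.5 with Beta-s added to these, and lay between 24.2 and 48.0 without 1 library.

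The protocol term lost 37 of these calls with the direction kept, and turned the log2 fold change of Afp (0.49), Apoa1 (0.97), Cald1 (0.54), Cd79b (-0.32), Col6a3 (0.69), Csf1r (0.64), Efnb2 (0.10), Hba-a1 and Hba-a2 (both -3.37), Mpo (0.21), Prtn3 (-1.72), Tpbpa (3.09) and Tpbpb (0.95). It also turned those of Bnip3l (-0.65), Epor (-0.36) and Hoxa9 (3.82). S100a8 (0.087) turned to -0.037 with RLE scaling and with DESeq2, and to -0.075 with upper-quartile scaling. With 1 library left out, the log2 fold change crossed 0 in Efnb2 (-1.06 to 0.75), Hba-a1 and Hba-a2 (both -0.065 to 0.90), Apoa1 (-0.81 to 0.22), Beta-s (-0.997 to 0.11), Car2 (-0.66 to 0.18), Pf4 (-0.84 to 0.13), Prtn3 (-0.24 to 0.88), S100a8 (-0.32 to 0.65) and Star (-0.37 to 3.44), of which Star alone was called. The cause was not tested. The effect of depth was not tested.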

Other observations

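Genes of the placenta and decidua, chosen after the values were seen, were present in both tissues, at uneven levels between libraries. In mesoderm A, Prl8a2, a prolactin family hormone of the decidua, stood at 194 RPKM, against 13 RPKM in mesoderm B and 0.919 and 0.043 RPKM in liver, and its mean in the E9.25 ysE libraries was 23.4 RPKM. Prl3d1, a placental lactogen of trophoblast giant cells, stood at 58.5 and 0.544 RPKM in mesoderm and was listed at 0 in both liver libraries, and Prl7a1 stood at 56.6 and 0.428 RPKM and 0.322 and 0.082 RPKM. The steroid synthesis genes Cyp11a1 (19.4 and 0.796 RPKM) and Star (12.1 and 0.824 RPKM) were likewise higher in mesoderm A than in mesoderm B. Tpbpa, a marker of the spongiotrophoblast, stood at 14.5 and 3.7 RPKM in liver and 0.114 and 0.288 RPKM in mesoderm, Tpbpb at 20.2 and 7.71 RPKM and 0.037 and 0.074 RPKM, and Ctsq at 21.3 and 9.14 RPKM and 0.0070 and 0 RPKM, each higher in liver A than in liver B. Tpbpa and Ctsq were also present in the cystic EBs, mainly in the library d15 A, at 25.4 and 10.6 RPKM. Of these genes, Prl8a2, Star, Tpbpb and Ctsq were called between the tissues. All 4 calls were lost with the protocol term, and that on Star also without mesoderm A. The part of these transcripts in the tissue comparison was not tested.

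Liver A also stood above liver B in genes of stomach mesenchyme and muscle. Barx1, a stomach factor, stood at 3.41 and 0.221 RPKM in liver A and B, Crabp2 at 13.1 and 1.59 RPKM and the embryonic muscle myosin Myh3 at 5.83 and 1.05 RPKM. The Y-linked gene Eif2s3y stood at 22.3 and 0.355 RPKM in liver A and B and at 38.5 and 19.9 RPKM in mesoderm A and B, although each sample is described as a pooled litter.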
